A study of Mus musculus with 6 samples.

Results

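The genes described here are 10 genes of the heat shock response and of protein folding, namely heat shock factor 1 (Hsf1) and the chaperone genes Hspa1a, Hspa1b, Hspa8, Hsp90aa1, Hsp90ab1, Hsph1, Dnaja1, Dnajb1 and Hspe1. They were chosen by name, and all 10 were found by Ensembl identifier among the 26128 genes of the deposited table. The RNA came from DNT cells (CD3+ T cells without CD4, CD8 or NK1.1) that had been converted from CD4+ T cells of wild type adult C57BL/6 mice by culture with DBA/2 dendritic cells and IL-2, and then sorted. All libraries, the controls included, came from cells restimulated with anti-CD3/CD28 beads for 48 h, in 3 libraries without IL-33 and in 3 with IL-33 at 50 ng/ml. Whether the libraries of a group are separate mice, conversions or wells is not stated, so the p values measure only the spread between these libraries.

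HSF1 is the transcription factor that switches on chaperone genes when unfolded proteins accumulate, by binding to heat shock elements near their start sites. The HSP70 proteins (HSPA1A, HSPA1B and HSPA8) hold unfolded stretches of other proteins, J-domain proteins (DNAJA1 and DNAJB1) bring these to HSP70 and drive its ATP use, and HSPH1 exchanges its nucleotide. HSP90 (HSP90AA1 and HSP90AB1) completes the folding of kinases and receptors, among them LCK of the T cell receptor pathway. HSPE1 is the lid of the chaperonin HSP60 (HSPD1) inside mitochondria.

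The heat shock element is a row of GAA and TTC units in alternation. It was searched on both strands as 3 such units in a row with any 2 bases between neighbours, and as 2 units (GAANNTTC or TTCNNGAA, both of which lie within the 3-unit form), in RefSeq promoter windows from 250 bases before to 50 bases after a gene start. The table held windows for 6 of the 10 genes, and Hsf1, Hspa8, Hsp90aa1 and Hsp90ab1 had no entry. The 3-unit element was in the windows of Hspe1 and Hsph1, against 0.603% of all 32851 windows. A 2-unit element was in those of Hspe1, Hsph1, Dnaja1, Hspa1a and Hspa1b, against 17.0% of all 27025 genes with a window and 15.1% of all windows. A gene counts here if any of its windows holds the element. For Dnaja1 only the window at chr4:40722218-40722517 did. In Hspe1 2 overlapping 3-unit elements began 89 and 84 bases before the start, in Hspa1a and Hspa1b a 2-unit element began 104 bases before it, and in Hsph1 the 3-unit element lay after the start. The 250 bases before the start are shown for Hspe1, which had the largest change with IL-33, and for the stress-induced HSP70 pair, whose stretches differ at 3 of 250 bases, with the elements in capitals.
Hspe1 (chr1:55087898-55088147, GRCm38.p6, plus strand): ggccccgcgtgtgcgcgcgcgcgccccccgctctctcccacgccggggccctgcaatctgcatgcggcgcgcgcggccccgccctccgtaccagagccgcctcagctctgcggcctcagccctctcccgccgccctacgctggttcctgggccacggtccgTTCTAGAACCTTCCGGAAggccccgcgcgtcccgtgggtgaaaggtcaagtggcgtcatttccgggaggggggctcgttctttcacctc
Hspa1a (chr17:34972157-34972406, GRCm38.p6, minus strand): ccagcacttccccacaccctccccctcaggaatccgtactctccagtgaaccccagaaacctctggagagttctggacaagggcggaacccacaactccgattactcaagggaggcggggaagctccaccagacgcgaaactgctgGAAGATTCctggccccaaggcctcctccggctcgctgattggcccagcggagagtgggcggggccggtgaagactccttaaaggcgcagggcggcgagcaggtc
Hspa1b (chr17:34959239-34959488, GRCm38.p6, minus strand): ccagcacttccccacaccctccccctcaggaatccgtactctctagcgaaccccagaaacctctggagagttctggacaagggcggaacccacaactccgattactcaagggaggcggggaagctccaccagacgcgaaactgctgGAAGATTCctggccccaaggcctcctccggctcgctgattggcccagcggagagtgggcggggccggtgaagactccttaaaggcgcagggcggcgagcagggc
The Hspe1 stretch also lies in a window of Hspd1 on the other strand (chr1:55087883-55088182), where the same elements began 144 and 139 bases before the start. The window of the other Hspd1 start (chr1:55088194-55088493), which is the start of the annotated gene at 55088243, held no element. Seen from that start the elements lie within the gene. A match of letters is a description of the sequence and does not show binding.

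The libraries held 20256342 to 22336050 counts. Genes with few counts were left out, and 14671 genes were tested, 9 of the 10 among them. Levels are given as CPM, the counts in 1000000 after scaling by the TMM method, or as RPKM, which is CPM per kilobase of annotated exon. SE is the standard error of a log2 fold change. T cell identity genes were present at a summed 2393 to 2553 CPM without IL-33 and 2502 to 2582 CPM with it. Of these 9 genes 2 were higher with IL-33 at an adjusted p under 0.05 in edgeR, Cd3g and Cd28, and 2 lower, Lck and Cd5. Their log2 fold changes were 0.13, 0.14, -0.17 and -0.43. This is 44.4% of the list, beside 27.5% of all genes tested and 41.1% of those at 25 CPM or more. Of the genes sorted against, Cd4 was at 0.225 to 1.08 CPM. It fell from 0.934 ± 0.183 to 0.373 ± 0.143 CPM (SD, n = 3 per group, adjusted p = 0.0233 in edgeR). But Cd8a was at 535 to 561 CPM in the controls and 393 to 410 CPM with IL-33, so the absence of CD8 in the sort was not mirrored in its RNA. Cd8b1, of the other CD8 chain, rose from 9.68 ± 1.65 to 16.3 ± 2.07 CPM (SD, n = 3 per group, adjusted p = 6.2e-08). Klrb1c, which encodes NK1.1, was also present and fell from 33.5 ± 2.57 to 25.6 ± 1.15 CPM (SD, n = 3 per group, adjusted p = 7.1e-06), and Ncr1 had 0 to 5 counts a library. Markers of dendritic and myeloid cells summed to 68.8 to 72.3 CPM without IL-33 and 42.9 to 49.4 CPM with it, most of it Itgax, while Batf3 rose from 1.51 ± 0.740 to 3.68 ± 0.946 CPM (SD, n = 3 per group). Xcr1 was at 11.5 ± 1.02 and 12.4 ± 0.969 CPM (SD, n = 3 per group, adjusted p = 0.521 in edgeR) and did not pass. Zbtb46, at 2.89 ± 0.469 and 2.98 ± 0.156 CPM, did not pass either (adjusted p = 0.912). Of this list Cd209a and Clec9a were not listed, and Flt3, Siglech, Lyz2, Adgre1 and Csf1r were under 1 CPM in every library. B cell markers summed to 4.79 to 5.70 and 5.30 to 6.35 CPM. Their part in the results below was not tested, and in bulk RNA fewer cells of a type and less RNA per cell cannot be told apart.

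Levels per length spanned more than 3 orders of magnitude among the 10 genes, and their order was nearly the same in both groups. Hsp90ab1 was the highest, at 523 ± 10.8 RPKM without IL-33 and 560 ± 9.09 RPKM with it (SD, n = 3 per group), above 99.6% of the genes tested. Hspa8 followed at 377 ± 7.44 and 354 ± 4.18 RPKM, and Hsp90aa1, the more inducible HSP90 gene, at 100.3 ± 1.74 and 98.4 ± 1.62 RPKM. Hspe1 was at 46.2 ± 3.30 and 59.6 ± 2.16 RPKM. Dnaja1 and Dnajb1 did not differ beyond their spread in the controls, at 21.5 ± 0.432 and 21.1 ± 0.788 RPKM, and with IL-33 they were at 18.9 ± 0.359 and 22.5 ± 0.583 RPKM. Hsph1 was at 11.7 ± 0.696 and 12.2 ± 0.234 RPKM and Hsf1 at 4.27 ± 0.269 and 3.91 ± 0.323 RPKM. The stress-induced pair was at the bottom, with Hspa1b at 0.569 ± 0.189 and 0.451 ± 0.196 RPKM and Hspa1a at 0.142 ± 0.0708 and 0.131 ± 0.0811 RPKM. These values depend on the annotated length, which covers every isoform and is long for Dnaja1, Hsph1 and Hsf1.

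**Figure D1:**
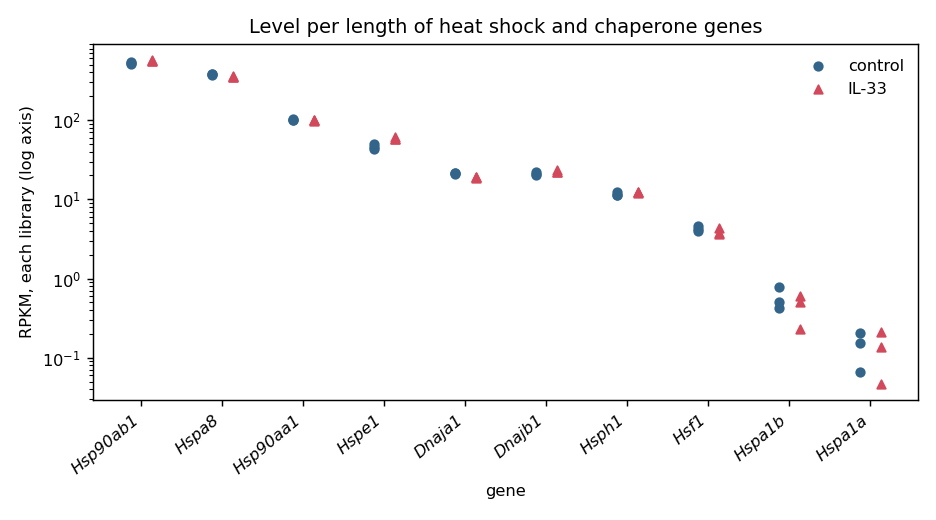
Level per length of the 10 genes, in RPKM on a log axis, with 1 point for each of 3 control libraries (circles) and 3 IL-33 libraries (triangles). Hsp90ab1 and Hspa8 stand at the top and Hspa1b and Hspa1a at the bottom in all 6 libraries.

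The comparison asks how IL-33 changed these genes in cells restimulated through CD3 and CD28. With edgeR's quasi-likelihood test (Benjamini-Hochberg adjustment across the table), 2 of the genes rose with IL-33, Hspe1 and Hsp90ab1, and 2 fell, Hspa8 and Dnaja1. The other 5 tested genes did not pass an adjusted p of 0.05, and Hspa1a had too few counts for a test. Among all genes tested 27.5% passed, 13.6% as higher and 13.9% as lower. Abundant genes passed more often. At 25 CPM or more, a limit that was set after the levels were seen and that 8 of these genes meet, 41.1% of all genes passed, and 4 of the 8 did. None of the 10 reached the fold change of 1.5 that the study set beside the adjusted p, against 4.87% of all genes tested and 1.73% of those at 25 CPM or more. This 0 is the same at an unadjusted p under 0.05 and in DESeq2 and limma-voom. For the 8 abundant genes the 95% intervals ran from -0.27 (the lower bound of Hsf1) to 0.46 (the upper bound of Hspe1) on the log2 scale and so left out a change of 1.5-fold in either direction.

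**Figure D2:**
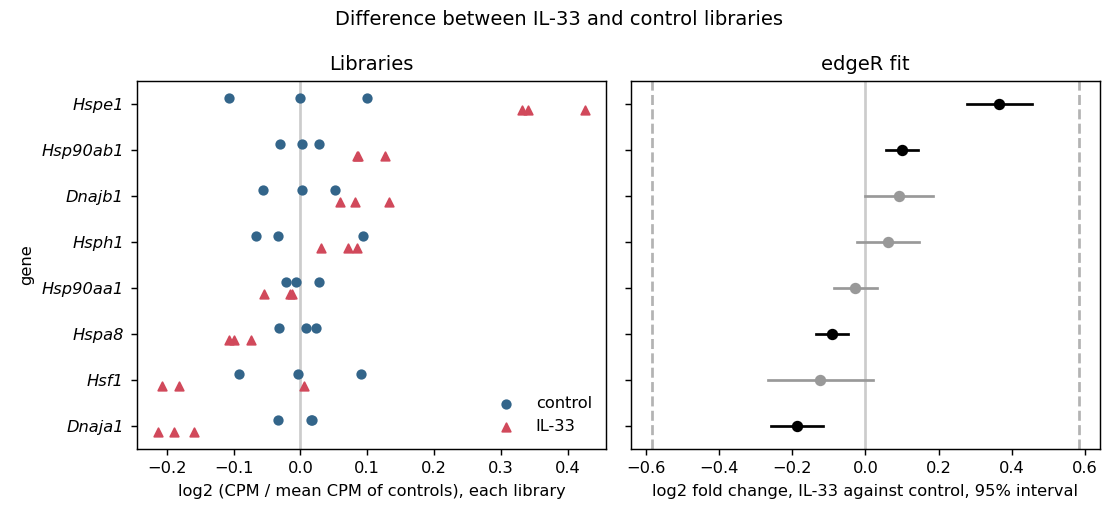
Left, log2 of the CPM of each library over the mean CPM of the controls for 8 genes (circles for control, triangles for IL-33), and right, the log2 fold change of the edgeR fit with its 95% interval, in black for an adjusted p under 0.05 and in grey otherwise, with dashed lines at a fold change of 1.5 in either direction. The 4 called genes, Hspe1, Hsp90ab1, Hspa8 and Dnaja1, have no overlap between groups, and all intervals lie between the dashed lines. Dnajb1, which was not called, has no overlap either, as for 51.6% of all genes at 25 CPM or more.

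The factor itself, Hsf1 (ENSMUSG00000022556, chromosome 15 from 76477422 to 76501913 on the plus strand, GENCODE M21 on GRCm38 as for all positions of genes), was at 28.4, 32.2 and 30.2 CPM in the controls and 30.4, 26.2 and 26.7 CPM with IL-33. IL-33 replicate 1 lay among the controls, so the groups overlapped. The log2 fold change was -0.12 (95% interval -0.27 to 0.02, adjusted p = 0.211). It was -0.19 without IL-33 replicate 1 and -0.08 without control replicate 2. The mRNA level does not report on the activity of HSF1, which is set largely on the protein. Of 3 other tested genes of the heat shock factor list, Hsf2, Hsf4 and the HSF1-binding Hsbp1, 0 passed in edgeR, DESeq2 or limma-voom, and 1 had an unadjusted p under 0.05 in edgeR.

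Hspa1a (ENSMUSG00000091971, chromosome 17 from 34969190 to 34972156, minus strand) and Hspa1b (ENSMUSG00000090877, chromosome 17 from 34956436 to 34959238, minus strand) encode the stress-induced HSP70 and are the textbook targets of HSF1. Hspa1b had 30, 24 and 48 counts in the controls and 14, 30 and 38 with IL-33. Hspa1a had 13, 4 and 10 counts in the controls and 3, 13 and 9 with IL-33. In both genes the groups overlapped, and IL-33 replicate 1 was the lowest library. Hspa1b had a log2 fold change of -0.34 (95% interval -0.98 to 0.30, adjusted p = 0.486), an interval too wide to leave out a fall of 1.5-fold. It was -0.02 without IL-33 replicate 1, -0.04 without control replicate 3, -0.51 without control replicate 2 and -0.62 without IL-33 replicate 3. The coding sequences of the pair are 99.4% identical, so reads can be split between them or lost. Summed, the pair had 43, 28 and 58 counts in the controls and 17, 43 and 47 with IL-33, and the log2 fold change was -0.29 (95% interval -0.87 to 0.29, adjusted p = 0.506). Of the stretches of 50 bases in their transcripts, 33.7% for Hspa1a and 37.7% for Hspa1b occur in no other GENCODE transcript, so both levels are uncertain. The small heat shock protein Hspb1, another inducible gene, had 1, 4 and 4 counts in the controls and 2, 6 and 8 with IL-33, against a detection limit of 3 counts, and was not tested.

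Hspa8 (ENSMUSG00000015656, chromosome 9 from 40800984 to 40810087, plus strand), the HSP70 gene that cells express all the time, was at 1649, 1633 and 1588 CPM in the controls and 1542, 1516 and 1508 CPM with IL-33. Every library with IL-33 was below every control. The fall was slight (log2 fold change -0.093, SE 0.022, adjusted p = 4.7e-04). Processed pseudogenes and other loci share 68.8% of its stretches of 50 bases. The one of these with the most counts, Gm8355, had 120 to 137 counts in a library and a log2 fold change of -0.06 (adjusted p = 0.819), against 31784 to 35010 counts for Hspa8. How reads with several matches were counted is not stated.

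Of the 2 cytosolic HSP90 genes, Hsp90ab1 rose and Hsp90aa1 did not pass. Hsp90ab1 (ENSMUSG00000023944, chromosome 17 from 45567775 to 45573271, minus strand), the constitutive form, was at 1599, 1535 and 1571 CPM in the controls and 1711, 1664 and 1664 CPM with IL-33. It was higher in every library with IL-33 (log2 fold change 0.099, SE 0.022, adjusted p = 1.8e-04). Hsp90aa1 (ENSMUSG00000021270, chromosome 12 from 110690605 to 110702728, minus strand), which heat and mitogens induce, was at 402, 393 and 389 CPM in the controls and 391, 380 and 390 CPM with IL-33. Its groups overlapped, and the log2 fold change was -0.03 (95% interval -0.09 to 0.03, adjusted p = 0.536). It was -0.01 without control replicate 1 or IL-33 replicate 2. The ratio of Hsp90ab1 to Hsp90aa1 counts within a library, which does not depend on scaling, was 3.98, 3.91 and 4.04 in the controls and 4.38, 4.38 and 4.27 with IL-33. This ratio was 3.98 ± 0.0659 against 4.34 ± 0.0661 (SD, n = 3 per group), with no overlap, and an exact two-sided permutation test gave p = 0.1, the smallest that 3 against 3 libraries allow. Of the stretches of 50 bases of Hsp90aa1 50.1% occur elsewhere, mostly in the pseudogene Gm12346 at 129 to 171 counts, and of those of Hsp90ab1 4.13% do.

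Dnaja1 (ENSMUSG00000028410, chromosome 4 from 40722150 to 40737149, plus strand) was at 188, 188 and 181 CPM in the controls and 163, 160 and 166 CPM with IL-33. All 3 libraries with IL-33 were lower, and its log2 fold change came to -0.19 (SE 0.036, adjusted p = 1.1e-05). Other loci share 27.1% of its stretches of 50 bases. It shares 608 bases with Smu1 on the other strand, and strand use in counting is not stated. Smu1 itself had a log2 fold change of -0.06 (adjusted p = 0.406).

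Dnajb1 (ENSMUSG00000005483, chromosome 8 from 83608193 to 83612653, plus strand), the inducible HSP40, was at 67.7, 70.0 and 65.0 CPM in the controls and 71.5, 74.0 and 70.4 CPM with IL-33. Its groups did not overlap either, as for 38.9% of all genes tested and 51.6% of those at 25 CPM or more, but the log2 fold change of 0.09 (95% interval -0.00096 to 0.18) had an adjusted p of 0.139 and did not pass. The ratio of Dnajb1 to Dnaja1 counts was 0.360, 0.373 and 0.358 in the controls and 0.439, 0.462 and 0.423 with IL-33, with means of 0.364 ± 0.00815 and 0.442 ± 0.0196 (SD, n = 3 per group, exact two-sided permutation p = 0.1). Of the 5 ratios compared this one differed most, by 0.28 on the log2 scale.

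Hsph1 (ENSMUSG00000029657, chromosome 5 from 149614287 to 149636376, minus strand), an HSP110 and a strongly heat-induced gene, was at 90.7, 81.2 and 83.1 CPM in the controls and 90.1, 89.3 and 86.9 CPM with IL-33. Control replicate 1 was the highest library of all, so the groups overlapped, and the log2 fold change was 0.06 (95% interval -0.02 to 0.15, adjusted p = 0.306). It was 0.11 without control replicate 1 and 0.03 without control replicate 2. Relative to Hspa8, whose nucleotide HSPH1 exchanges, its counts were 0.0524 ± 0.00265 in the controls and 0.0583 ± 0.000672 with IL-33 (SD, n = 3 per group, exact two-sided permutation p = 0.1).

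Hspe1 (ENSMUSG00000073676, chromosome 1 from 55088132 to 55091307, plus strand) had the largest change with IL-33 of the 4 called genes. It was at 63.2, 68.0 and 73.0 CPM in the controls and 91.5, 85.7 and 86.2 CPM with IL-33, a clear gap between the groups. The mean rose from 68.1 ± 4.87 to 87.8 ± 3.18 CPM (SD, n = 3 per group), with log2 fold change 0.37 (SE 0.045, adjusted p = 5.6e-11) or 1.29-fold. Other loci share 44.8% of its stretches of 50 bases. Its partner Hspd1, which starts head to head with it and overlaps it by 112 bases on the other strand, was at 136, 132 and 129 CPM in the controls and 153, 150 and 142 CPM with IL-33. Hspd1 also rose in every library (log2 fold change 0.16, SE 0.038, adjusted p = 3.9e-04). The ratio of Hspe1 to Hspd1 counts was 0.463, 0.516 and 0.565 in the controls and 0.5997, 0.572 and 0.606 with IL-33, with means of 0.515 ± 0.0511 and 0.592 ± 0.0184 (SD, n = 3 per group). The exact two-sided permutation test of this ratio gave p = 0.1, and the gap between the nearest libraries of the groups was smaller than the spread within the controls. The last of the 5 ratios, Hspa8 to Hsp90ab1, was 1.04 ± 0.0268 in the controls and 0.906 ± 0.00490 with IL-33 (SD, n = 3 per group, exact two-sided permutation p = 0.1). All 5 ratios were chosen after the levels had been seen, and their adjusted p was 0.1. Each holds a called gene, so the lack of overlap adds no support beyond those calls.

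**Figure D3:**
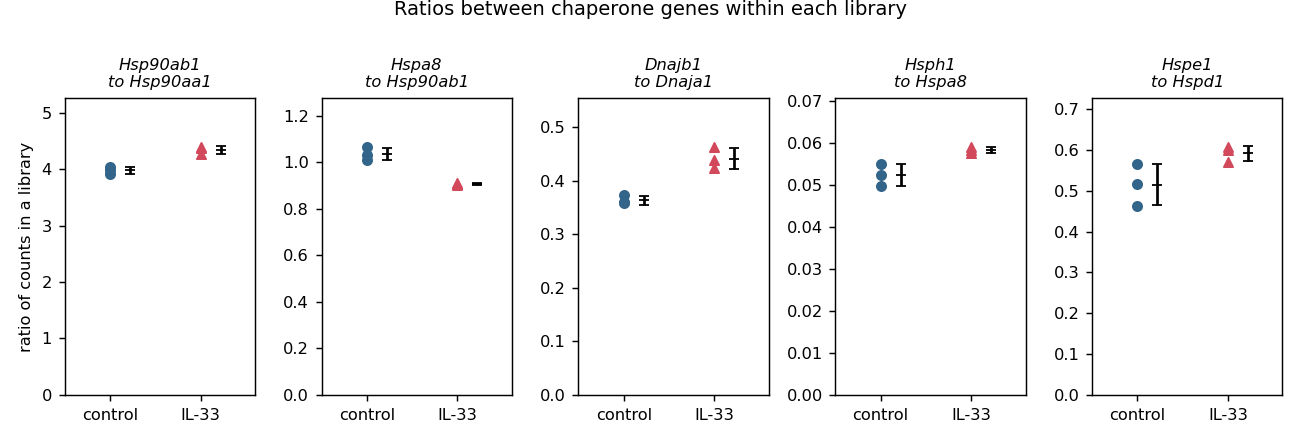
Ratio of the counts of 2 genes within each library, on linear axes from 0, for 5 pairs, with 1 point per library (circles for control, triangles for IL-33) and the mean with SD beside them. In each pair the 3 IL-33 libraries lie to one side of the 3 control libraries, with the narrowest gap for Hspe1 to Hspd1. The pairs were chosen after the levels had been seen, and each holds a called gene.

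The wider folding machinery was read from 8 lists with 78 further genes, of which 71 were tested. With IL-33 15 rose and 13 fell (14 and 9 in DESeq2, 16 and 13 in limma-voom), and 43 did not pass. So 39.4% passed in edgeR, beside 27.5% of all genes tested. The lists hold genes on both sides of 25 CPM, above which 41.1% of all genes passed, and nothing particular to them is read from these shares or from those of the single lists below. Their median log2 fold change was 0.038, beside -0.00063 for all genes tested, and 0 of them reached the fold change threshold (0 also at an unadjusted p under 0.05, in DESeq2 and in limma-voom). Without IL-33 replicate 1 only 7 fell.

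Of the mitochondrial chaperones 4 of 9 were higher and 1 lower (3 and 1 in DESeq2), with a median of 0.11. That is 55.6% called, beside 27.5% of all genes tested and 41.1% of those at 25 CPM or more. Besides Hspd1 those higher were Hspa9, the mitochondrial HSP70, from 246 ± 4.73 to 265 ± 6.56 CPM, the protease Lonp1, and Clpx. For Hspa9, Lonp1 and Clpx the log2 fold changes were 0.11, 0.13 and 0.17. Grpel2, a nucleotide exchange factor for HSPA9, fell from 22.1 ± 1.17 to 17.7 ± 0.510 CPM, a log2 fold change of -0.33 (adjusted p = 0.0020). Trap1, the mitochondrial HSP90, was at -0.02 and did not pass. Genes of the mitochondrial genome itself, of any RNA type, took 1.86% to 1.95% of counts in the controls and 2.09% to 2.12% with IL-33. Their part in these changes was not tested.

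The ring chaperonin TRiC, which folds actin and tubulin, had 4 of 8 subunit genes higher and 0 lower (0 also at an unadjusted p under 0.05, in DESeq2 and in limma-voom). Cct2 rose from 274 ± 4.02 to 312 ± 1.15 CPM (SD, n = 3 per group), with log2 fold change 0.19 (adjusted p = 5.3e-07), and Cct5, Cct8 and Cct4 rose by 0.15, 0.12 and 0.097. The other subunits had values from 0.0018 to 0.057. The share called was 50% (27.5% of all genes tested, 13.6% as higher, and 41.1% at 25 CPM or more). Of 6 genes of prefoldin, which hands actin and tubulin to TRiC, Pfdn1 and Vbp1 rose and Pfdn5 fell. For prefoldin the share called was also 50%, beside the same 27.5% and 41.1%. Pfdn1 went from 29.5 ± 0.478 to 34.8 ± 1.90 CPM (SD, n = 3 per group), with log2 fold change 0.24 (adjusted p = 0.0045), and its adjusted p without IL-33 replicate 2 was 0.0560.

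HSP90 cochaperones had 6 of 16 genes lower (4 in DESeq2) and 1 higher, with a median of -0.049. This share of 43.8% stands beside 27.5% of all genes tested and 41.1% of those at 25 CPM or more. Those lower were Fkbp4 and Ptges3, which act in steroid receptor folding, Cdc37l1, the HSP90 activator Ahsa1, the ubiquitin ligase Stub1 and Tomm34. Ptges3 fell from 91.8 ± 3.78 to 78.2 ± 2.09 CPM, a log2 fold change of -0.23 (adjusted p = 6.7e-06). Cdc37, which loads kinases onto HSP90, was the gene that rose, from 275 ± 2.50 to 310 ± 6.41 CPM, a log2 fold change of 0.17 (adjusted p = 3.1e-06). Of 12 tested HSP70 relatives and exchange factors, 2 were lower, Hspa4 and Hspa14, and 0 were higher (1 at an unadjusted p under 0.05, 0 in DESeq2 and in limma-voom). This list had 16.7% called, beside the same 27.5% and 41.1%. Bag3, an exchange factor that HSF1 induces, was at 9.39 ± 0.615 and 8.65 ± 1.63 CPM, a log2 fold change of -0.12 (adjusted p = 0.548). It ran from -0.28 without IL-33 replicate 1 to -0.02 without IL-33 replicate 2, and was -0.06 without control replicate 3 or IL-33 replicate 3.

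J-domain proteins had 3 of 13 higher and 3 lower (3 and 1 in DESeq2), or 46.2% called, beside 27.5% of all genes tested and 41.1% at 25 CPM or more. Dnajb4 rose from 34.2 ± 1.29 to 46.6 ± 1.59 CPM (log2 fold change 0.45, adjusted p = 2.5e-09), Dnajb12 from 37.2 ± 2.37 to 45.3 ± 0.847 CPM (0.28, adjusted p = 1.1e-04) and Dnajb6 from 214 ± 7.15 to 255 ± 1.64 CPM (0.25, adjusted p = 2.7e-10). Dnajb14 fell from 8.96 ± 0.417 to 6.72 ± 0.637 CPM, a log2 fold change of -0.41 (adjusted p = 0.0131), but its adjusted p was 0.0561 without control replicate 1 and 0.0934 without IL-33 replicate 1. Dnajb5 fell from 15.7 ± 1.04 to 12.7 ± 0.888 CPM, a log2 fold change of -0.31 (adjusted p = 0.0185), which was 0.0549 in DESeq2 and 0.115, 0.0586 and 0.0884 without control replicate 3, IL-33 replicate 1 and IL-33 replicate 2. Dnajc2, which acts at the ribosome, fell by 0.14. Of the small heat shock proteins and other HSF1 targets 4 of 8 had enough counts for a test and 1 rose, Hspb11, from 6.70 ± 0.327 to 9.77 ± 0.921 CPM (log2 fold change 0.54, adjusted p = 6.8e-04). That is 25% of those tested, beside the same 27.5% and 41.1%. Despite its name Hspb11, also known as Ift25, encodes a protein of transport in cilia.

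**Figure D4:**
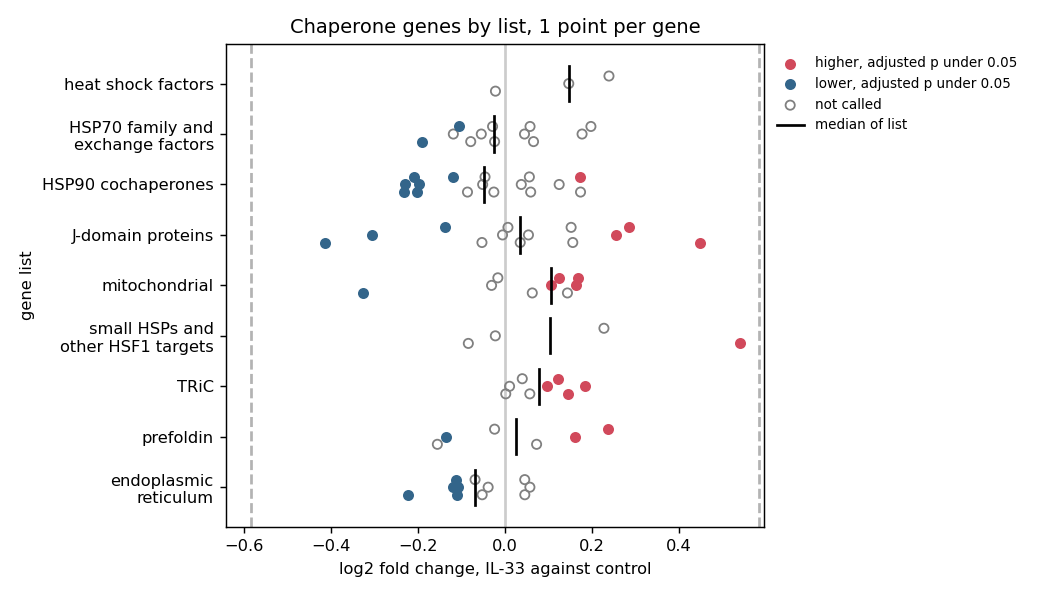
Log2 fold change of each tested gene in 9 chaperone lists, 1 point per gene, filled where the adjusted p was under 0.05 and open otherwise, with the list's median as a black bar and dashed lines at a fold change of 1.5 in either direction. TRiC genes all lie at or above 0, called genes of the endoplasmic reticulum all lie below 0, and no gene passes a dashed line.

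Chaperones of the endoplasmic reticulum were set beside these genes as relatives that answer to another stress pathway. Of 11 genes 5 were lower and 0 higher (1 at an unadjusted p under 0.05, 0 in DESeq2 and in limma-voom), with a median of -0.069. The share called was 45.5%, where all genes tested gave 27.5% (13.9% as lower) and those at 25 CPM or more 41.1%. Hspa5 (BiP), the HSP70 of this compartment, was at 975 ± 8.38 and 949 ± 13.4 CPM (log2 fold change -0.04, adjusted p = 0.241). Hsp90b1 (GRP94), its HSP90, was at 393 ± 7.66 and 406 ± 11.2 CPM (log2 fold change 0.05, adjusted p = 0.262). Immediate early genes, which stimulation and stress raise in many cells, had 6 of 10 higher and 1 lower with IL-33 and summed to 650 to 679 CPM in the controls and 785 to 827 CPM with IL-33. Their share called was 70%, beside the same 27.5% and 41.1%. Their part in the changes above was not tested.

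The genes with a 3-unit heat shock element in a window were also counted. Of 53 such genes tested 11 were higher and 6 lower, which is 32.1%, beside 30.6% of all 10069 tested genes with a window, and their median log2 fold change was -0.0090. Windows were searched for 6 of the 10 genes and for 65 of the 78 genes of the lists. Those on chromosome 18 were left out, and Hspa9, Grpel2 and Pfdn1 lie there. Of the genes with a window, 5 had the element, of which Hspe1, Hspd1 and Dnajb6 rose and Hsph1 and Chordc1, an HSP90 cochaperone at a log2 fold change of -0.05, did not pass. Hspe1 and Hspd1 share the same stretch of DNA, read on opposite strands, so these 5 are not separate instances.

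The mean profile of the 9 genes other than Hsf1 over the 6 libraries, as centred log2 CPM, ran from -0.18 to 0.091. The genes nearest to it in Euclidean distance, among 8831 genes with at least 10 CPM, were 3110056K07Rik, Armcx5, Cuta, Gm10156 and Zfp24, at distances of 0.095 to 0.12. This mean rests largely on the low counts of Hspa1a and Hspa1b. Without these it ran from -0.032 to 0.041, and the nearest genes were Golph3, Klhl36, Acly, Il2rb and Ssr1. Both means average genes that rose (Hspe1 and Hsp90ab1) and genes that fell (Hspa8 and Dnaja1). Nearness to a mean is therefore not likeness to any single gene.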

How the data were processed

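RNA sequencing of DNT cells was analysed in 6 libraries, 3 without IL-33 and 3 with it, grouped by the sample labels. The authors deposited unnormalised read counts for each gene, with 1 further column of signal named baseMean, the authors' mean over libraries of scaled counts, which was not used. The submitters' processing notes name Bowtie 0.12.2 and the build mm8, without a role. The counting program, the annotation, the strand setting and the treatment of reads with several matches were not given in the sources used here. Different library kits are named in the labels and in the study. Of 26128 identifiers 26072 matched a symbol, and positions and exon lengths come from GENCODE M21 (GRCm38), which may not be the authors' annotation. Sequences are from RefSeq (GRCm38.p6).

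Genes were kept by filterByExpr (minimum count 10, minimum total 15), which removed 0.110% of counts, scaled by TMM and tested with edgeR 4.0.16 (robust glmQLFit, glmQLFTest, two-sided, no covariates) in R 4.3.3 with p adjusted by Benjamini-Hochberg over the tested genes. Standard errors and 95% intervals come from the quasi-likelihood F. The thresholds are those of the study. Intervals and the limit of 3 counts cover the spread between libraries and counting error only. Alternatives were DESeq2 1.42.0, limma-voom (limma 3.58.1), other scaling and filters, a replicate block and each library left out. The script was tested on simulated data. The genes and lists were chosen with earlier results of these data known. The genes to name were all 10, then from the chaperone lists those past both thresholds and the 8 largest changes with an adjusted p under 0.05 and at least 1 CPM, then Hspd1, Hspa5, Hsp90b1, Bag3 and Hspb1, then the 5 nearest profiles. Other genes of the lists are named as examples and were chosen after their values were seen.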

Additional observations from a re-analysis of the deposited data

How the results depend on the processing

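For the 9 tested genes of heat shock factor and chaperones, each of 13 or 14 other fits gave the same direction and the same side of the adjusted p threshold, with 2 genes higher, 2 lower and 0 past both thresholds in every fit. The log2 fold change of Hspe1 ran from 0.32 to 0.42, of Hsp90ab1 from 0.082 to 0.11, of Hspa8 from -0.11 to -0.081 and of Dnaja1 from -0.20 to -0.17. These include a fit without TMM, added after the data had been seen. That of Hspa1b ran from -0.62 to -0.023, the widest range of the 9, of Hsf1 from -0.19 to -0.078, of Hsph1 from 0.030 to 0.11, of Hsp90aa1 from -0.045 to -0.012, of Dnajb1 from 0.064 to 0.12 and of the exchange factor Bag3 from -0.28 to -0.021, and without the filter Hspa1a had a log2 fold change of -0.13 (95% interval -1.3 to 1.0, adjusted p = 0.927 in edgeR). Of the 71 genes of the chaperone lists, 7 to 11 were lower with 1 library left out, against 13 with all of them, and 12 to 17 were higher. The count of 7 came without IL-33 replicate 1, a fit with fewer libraries, and the cause was not tested. The 5 genes nearest in profile, none with an adjusted p under 0.05, each changed direction without 1 to 3 of the single libraries. Their log2 fold changes then ran from -0.14 to 0.023 for 3110056K07Rik, from -0.062 to 0.12 for Armcx5, from -0.061 to 0.037 for Cuta, from -0.071 to 0.034 for Gm10156 and from -0.026 to 0.094 for Zfp24.

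The libraries share only replicate numbers. Deviations from the group mean correlated at only 0.012, 0.0032 and 0.011 for equal numbers, although each library correlated best with its own number. Values this small cannot decide whether the numbers pair the libraries. With the replicate as a block 3798 genes had an adjusted p under 0.05, against 4036 without it, and 2 of the 10 genes were higher and 2 lower. Depth limits Hspa1a, Hspa1b and Hspb1, at 1 to 48 counts a library.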
